A study of Mus musculus with 6 samples.

Results

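Expression of 10 scavenger and phagocytic receptors was described in 6 RNA-Seq libraries from mouse mononuclear phagocytes. The members were Cd36, Msr1, Marco, Cd163, Mrc1, Cd68, Stab1, Scarb1, Olr1 and Timd4. They were chosen by name for what their proteins do, with earlier results of these data known. They are 10 of 35237 genes in a table of FPKM, fragments scaled by transcript length and by mapped reads, and 10 of 36536 in a table of normalized values from ALEXA-Seq, a second method applied to the same libraries. Each member had a single entry in both tables.

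The libraries came from 3 pools of bone marrow-derived monocytes (BMDM) and 3 pools of brainstem microglia (BSM). All mice were of the C57BL/6 strain and aged 6 weeks. BMDM were sorted straight from bone marrow, without culture, as CD11b+ CD45high CD115+ Ly6G- cells, and BSM from brainstem as CD11b+ CD45low CD115low Ly6G- cells. The labels give male mice for replicate 1 of each cell type and female mice for replicates 2 and 3.

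Scavenger receptors are surface or lysosomal proteins with which phagocytes take up modified lipoproteins, dead cells, microbes and spent proteins. They are a functional class and not a family by descent: the class A receptors (Msr1, Marco) carry collagen-like stalks, the class B receptors (Cd36, Scarb1) span the membrane at both ends and pass lipids, and others are lectins or mucins. Tissue macrophages of liver, spleen, lung and brain borders express distinct sets of them, and Mrc1, Cd163 and Stab1 are in common use as marks of perivascular and alternatively activated macrophages, while Cd68 is in common use as a general mark of macrophages.

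In short, Msr1 was higher in BMDM than in BSM in both tables under all alternatives tried. Scarb1 was called higher in BMDM in both tables as deposited, but the call was lost with ALEXA-Seq under all 3 scalings of the libraries and with FPKM under 1 of them. Cd68 was by far the most abundant member in both cell types and did not pass the test between them as deposited. It was called higher in BSM with ALEXA-Seq under all 3 scalings and with FPKM under 1 of them. Stab1 was the sole member for which every BSM library lay above every BMDM library, at a low level, Marco was listed at 0 in all 6 libraries, and Mrc1, Cd163 and Timd4 were low in both cell types with overlapping values.

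The sorted cells carried the markers of their labels. All 8 monocyte markers were called higher in BMDM and all 9 microglia markers higher in BSM. Summed FPKM of the monocyte markers lay between 739 and 891 in BMDM and between 0.0861 and 1.27 in BSM, and that of the microglia markers between 18.0 and 20.8 in BMDM and between 951 and 1084 in BSM. BMDM replicate 2 held the highest summed FPKM of 8 granulocyte markers, 337 against 48.2 and 83.6 in replicates 1 and 3, and of 6 erythroid markers, 49.2 against 8.59 and 7.48. BSM replicate 1 held the lowest monocyte marker sum of all libraries and stood apart from the other BSM libraries for several members, as given below. It also had the fewest genes at or above an FPKM of 1, namely 5155 against 6518 and 6335 in BSM replicates 2 and 3 and 7270 to 7898 in BMDM. The study's own RNA assessment lists that library with the least concentrated RNA and with by far the lowest integrity of the 6. The part of RNA quality in the results was not tested. Total FPKM over all genes were 163199 to 194184 in BMDM and 68288 to 75021 in BSM. Over the tested genes the log2 fold change accordingly had a median of 0.81 in favour of BMDM with FPKM and 0.84 with ALEXA-Seq, and results that hang on this shift are given with it. Fewer cells expressing a gene and less RNA per cell cannot be told apart in pooled cells.

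The stretch of DNA before the start of transcription holds the sites through which macrophage factors such as PU.1, AP-1 and C/EBP proteins act. RefSeq promoters (GRCm38.p6, another build than the mm9 of the expression files) were found for 8 of the 10 members. The 250 bases before the start are printed here for 3 of them: Cd68 as the most abundant member, Olr1 as a member whose BSM libraries differed widely, and Stab1 as the member with every BSM library above BMDM. Each is written 5′ to 3′ on the strand of the gene, and capitals mark matches to the searched motifs, each sought on either strand. The search covered the letters GAGGAA, which are the core of the purine box that the macrophage factor PU.1 binds upstream of many myeloid genes. For the AP-1 site the letters were TGACTCA, the palindrome-like element read by Fos and Jun dimers in activated phagocytes. The C/EBP motif was TTGCNNAA, an element used throughout myeloid differentiation by factors such as Cebpa and Cebpb. The GC box, bound by Sp1 and its relatives in housekeeping and myeloid promoters, was written as GGGCGG on either strand. A TATA box, the element that fixes the start of many inducible genes, was sought as TATAAA and had no match in the 8 windows. The E-box of the MITF and TFE factors that drive lysosomal genes was sought as CACGTG and had no match in them either.
Cd68 (chr11:69666171-69666420, minus strand): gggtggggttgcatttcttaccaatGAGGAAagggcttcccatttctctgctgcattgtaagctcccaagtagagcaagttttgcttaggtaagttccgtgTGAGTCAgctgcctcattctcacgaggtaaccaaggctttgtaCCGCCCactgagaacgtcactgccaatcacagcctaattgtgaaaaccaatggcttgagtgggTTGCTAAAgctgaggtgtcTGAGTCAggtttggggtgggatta
Olr1 (chr6:129507166-129507415, minus strand): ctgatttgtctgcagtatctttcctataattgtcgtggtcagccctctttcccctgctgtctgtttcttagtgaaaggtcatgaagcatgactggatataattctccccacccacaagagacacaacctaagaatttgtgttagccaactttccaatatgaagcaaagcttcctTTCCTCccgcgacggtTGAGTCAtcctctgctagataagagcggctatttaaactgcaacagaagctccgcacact
Stab1 (chr14:31168642-31168891, minus strand): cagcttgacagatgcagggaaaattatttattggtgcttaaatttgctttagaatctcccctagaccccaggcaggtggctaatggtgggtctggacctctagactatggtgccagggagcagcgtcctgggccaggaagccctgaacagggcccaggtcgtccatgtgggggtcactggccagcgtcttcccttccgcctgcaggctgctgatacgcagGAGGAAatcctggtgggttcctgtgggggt

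The Cd68 window held the most kinds of motif: a purine box 225 bases before the start, AP-1 matches 149 and 24 bases before it, a GC box at 106 and a C/EBP match at 43. The Olr1 window held a purine box at 76 bases and an AP-1 match at 60 bases before the start. The Stab1 window held a purine box at 30 bases and no other match. Among the members not printed, Mrc1 had 3 purine boxes and a GC box, Marco had a purine box at 146 bases, Cd36 had 2 GC boxes and no purine box, and the windows of Cd163 and Timd4 held none of the 6 motifs. Of 32536 mouse promoter windows of this length, 23.4% held the purine box, 4.45% the AP-1 site, 33.0% the GC box, 9.57% the C/EBP motif, 12.3% the TATA box and 6.04% the E-box. These matches describe the letters only.

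Differences between BMDM and BSM were tested with limma on log2(value + 1) across 6364 genes in each table, namely those reaching 3 FPKM in any library and the same number of genes with the highest ALEXA-Seq values. A gene was called at an adjusted p under 0.05 (Benjamini-Hochberg). Of the 10 members, 4 entered the test in both tables: Msr1, Cd68, Scarb1 and Olr1. Of these 4, 2 were called higher in BMDM in both tables, and 0 passed the test in favour of BSM. Over all tested genes, 54.5% were called with FPKM (45.3% higher in BMDM, 9.22% higher in BSM) and 47.9% with ALEXA-Seq (37.1% and 10.9%), so that 2 of 4 is close to the share of all genes. The remaining members were too low for the test and are given by their values. BMDM and BSM libraries did not overlap for 4 of the 10 members, Cd36, Msr1 and Scarb1 being higher in BMDM and Stab1 in BSM, whereas 66.8% of the tested genes with FPKM and 66.1% with ALEXA-Seq did not overlap. Since 6 of the members were below the minimum of that test, the share over all genes above 0 in any library is the closer one, and it was 37.4% with FPKM (21167 genes) and 33% with ALEXA-Seq (22980 genes). Since these folds are on the log2(value + 1) scale, they understate the change of low genes.

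**Figure D1:**
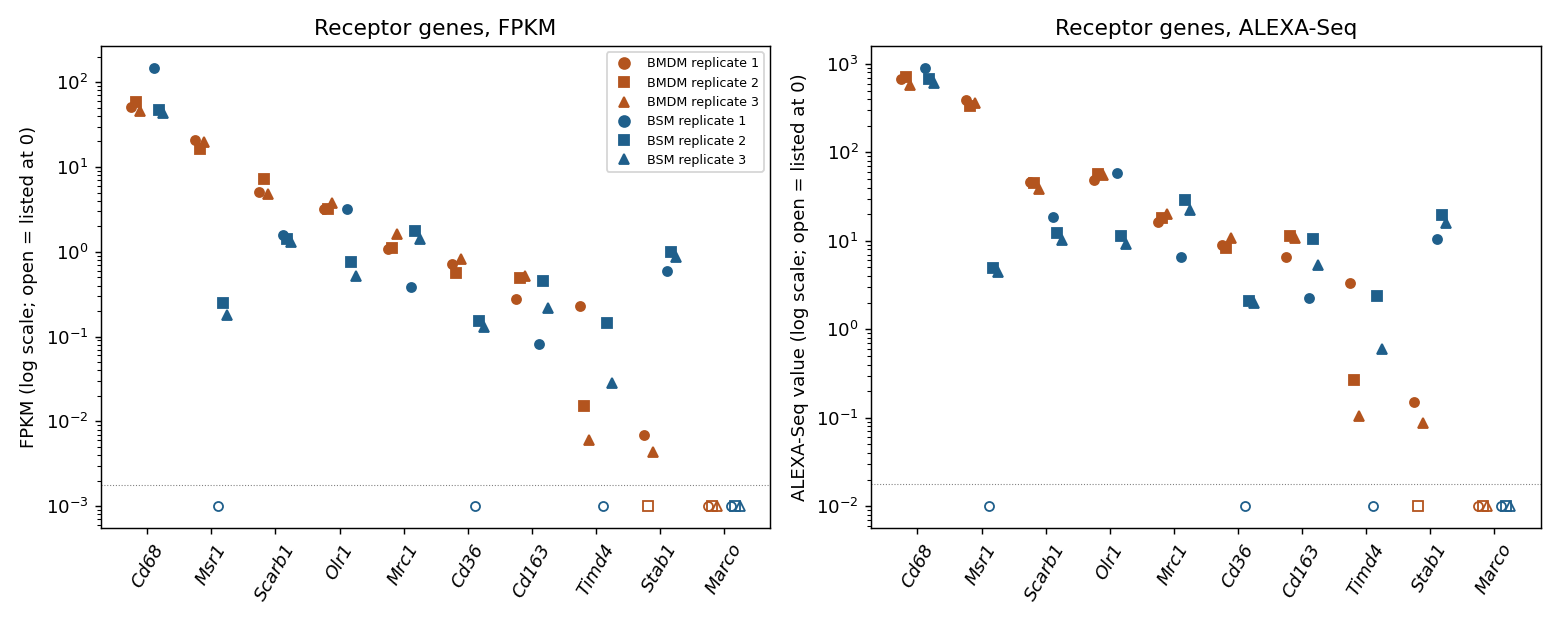
Value of each receptor gene in each library (points, BMDM in orange and BSM in blue, shapes for replicates) as FPKM (left) and as ALEXA-Seq value (right) on log axes, with open points for values listed at 0. Cd68 lies highest in every library, Msr1 falls from 16.2 to 20.9 FPKM in BMDM to at most 0.252 in BSM, and Stab1 lies between 0.588 and 1.00 FPKM in BSM but at or below 0.00695 in BMDM.

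Of the tested members, Msr1 had the largest log2 fold change in both tables. Msr1, which encodes the macrophage scavenger receptor SR-A that binds modified LDL, apoptotic cells and bacteria, had FPKM of 20.9, 16.2 and 19.7 in BMDM replicates 1 to 3 and of 0, 0.252 and 0.178 in BSM replicates 1 to 3. All BMDM libraries were far above all BSM libraries, and BSM replicate 1 was listed at 0. The log2 fold change was 4.12 (SE 0.23, adjusted p = 9.92e-06 by limma), and 6.82 with ALEXA-Seq (SE 0.70, adjusted p = 0.000392), where BMDM libraries had 396, 331 and 357 and BSM libraries 0, 4.92 and 4.49. The ratio of mean FPKM was 132, and it moved to 87.8 without BSM replicate 1 and to 212 without BSM replicate 2, since the BSM mean rests on values near 0. By FPKM, Msr1 lay at percentiles of 93.8 to 96.1 in the BMDM libraries, among the genes above 0 in any library. The gene lies at mm9 chr8:40667039-40721843.

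Marco, a related class A receptor of marginal zone and alveolar macrophages, was listed at 0 FPKM and at 0 in ALEXA-Seq in all 6 libraries (mm9 chr1:122371115-122401661). No fold can be given for it. Genes with a clear ALEXA-Seq value were seldom listed at 0 in FPKM, between 0.140% and 0.619% of those at or above 37.4 in a library. Marco, at 0 in ALEXA-Seq too, lies outside the genes that this share covers. The depth behind a value of 0 is unknown.

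Among the class B receptors, Scarb1 was called higher in BMDM and Cd36 was too low for the main test. Scarb1 encodes SR-BI, the receptor for selective uptake of cholesteryl ester from HDL, and had FPKM of 5.12, 7.19 and 4.83 in BMDM and of 1.57, 1.41 and 1.32 in BSM. The means were 5.71 ± 1.29 (SD, n = 3) and 1.43 ± 0.126 (SD, n = 3), a ratio of 3.99. All BMDM libraries lay above all BSM libraries, with a log2 fold change of 1.45 (SE 0.24, adjusted p = 0.0019 by limma). ALEXA-Seq gave 46.3, 44.5 and 38.6 in BMDM and 18.7, 12.3 and 10.2 in BSM, with a log2 fold change of 1.62 (SE 0.37, adjusted p = 0.0114). The highest FPKM was in BMDM replicate 2, the library with the most granulocyte and erythroid signal. Without that library the gene was called with FPKM (log2 fold change 1.30, adjusted p = 0.0085). BMDM replicates 1 and 3 had granulocyte marker sums of 48.2 and 83.6 FPKM. Most of these sums was Mpo (32.7 and 67.1) and Elane (9.75 and 10.7). Ly6g was at 0 in both libraries, and Camp, Ltf, Retnlg, Lcn2 and Ngp were at most 3.44 FPKM there. The part of such signal in Scarb1 was not tested. With ALEXA-Seq the call was lost without BMDM replicate 1 (1.57, adjusted p = 0.0526) or replicate 3 (1.70, adjusted p = 0.0529). The call also depended on the scaling: once libraries were scaled to the same sum the log2 fold change was 0.49 with FPKM (adjusted p = 0.126) and 0.39 with ALEXA-Seq (adjusted p = 0.412). With ALEXA-Seq the call was also lost after upper quartile scaling (0.92, adjusted p = 0.0839) and quantile normalization (0.84, adjusted p = 0.167), whereas with FPKM it stood after both (0.83, adjusted p = 0.0230, and 0.73, adjusted p = 0.0429). The gene lies at mm9 chr5:125757457-125821464.

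Cd36, the fatty acid, thrombospondin and oxidized LDL receptor, was low in both cell types. BMDM libraries had FPKM of 0.715, 0.569 and 0.829, a mean of 0.704 ± 0.131 (SD, n = 3), and BSM libraries 0, 0.154 and 0.131. The groups did not overlap, but no library reached the minimum for the test. With ALEXA-Seq the values were 8.88, 8.26 and 10.8 in BMDM and 0, 2.10 and 1.97 in BSM, again without overlap. When the minimum was dropped, the log2 fold change was 0.64 (SE 0.13, adjusted p = 0.0228 by limma) with FPKM and 2.29 (SE 0.65, adjusted p = 0.0661) with ALEXA-Seq, so that the call was made in the former table and not in the latter. Cd36 lies at mm9 chr5:17287834-17341514.

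Cd68, a heavily glycosylated protein of late endosomes and lysosomes that binds oxidized LDL, carried most of the receptor signal. Its FPKM were 51.5, 57.9 and 45.8 in BMDM and 147, 47.2 and 43.5 in BSM. BMDM libraries spanned a narrow range, and BSM replicates 2 and 3 lay within or just below it, while BSM replicate 1 was 3.25 times the mean of the other 2 BSM libraries. The log2 fold change was -0.38 (SE 0.45, adjusted p = 0.494 by limma). With ALEXA-Seq the values were 666, 715 and 575 in BMDM and 902, 671 and 604 in BSM, so that BSM replicate 1 was again highest but by only 1.42 times the other 2 (log2 fold change -0.14, SE 0.21, adjusted p = 0.613). Without that library the sign turned, to 0.18 with FPKM (adjusted p = 0.373) and 0.03 with ALEXA-Seq (adjusted p = 0.890). The male BMDM library had 51.5, between the 2 female BMDM libraries. BSM replicate 1 is the only male BSM library and the one with the lowest RNA integrity, so that sex, RNA quality and other traits of that library cannot be told apart.

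Cd68 was among the highest genes of every library, at percentiles of 98.1 to 98.6 in BMDM and 99.1 to 99.8 in BSM by FPKM, among the genes above 0 in any library. By mean FPKM it ranked 332 in BMDM and 99 in BSM. It made up 62.1%, 66.8% and 59.4% of the summed FPKM of the 10 members in the BMDM libraries and 96.2%, 88.8% and 90.3% in the BSM libraries. The sum of the other 9 members was 31.4, 28.8 and 31.3 FPKM in BMDM against 5.85, 5.93 and 4.67 in BSM, without overlap. The result depended on the scaling of the libraries. After scaling to the same sum the log2 fold change was -1.67 with FPKM (adjusted p = 0.0272) and -1.42 with ALEXA-Seq (adjusted p = 0.00162), and after upper quartile scaling -1.22 (adjusted p = 0.0776) and -0.87 (adjusted p = 0.0140). Quantile normalization gave -1.17 with FPKM (adjusted p = 0.0682 by limma) and -0.82 with ALEXA-Seq (adjusted p = 0.0151). The gene is short, at mm9 chr11:69477715-69479655.

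**Figure D2:**
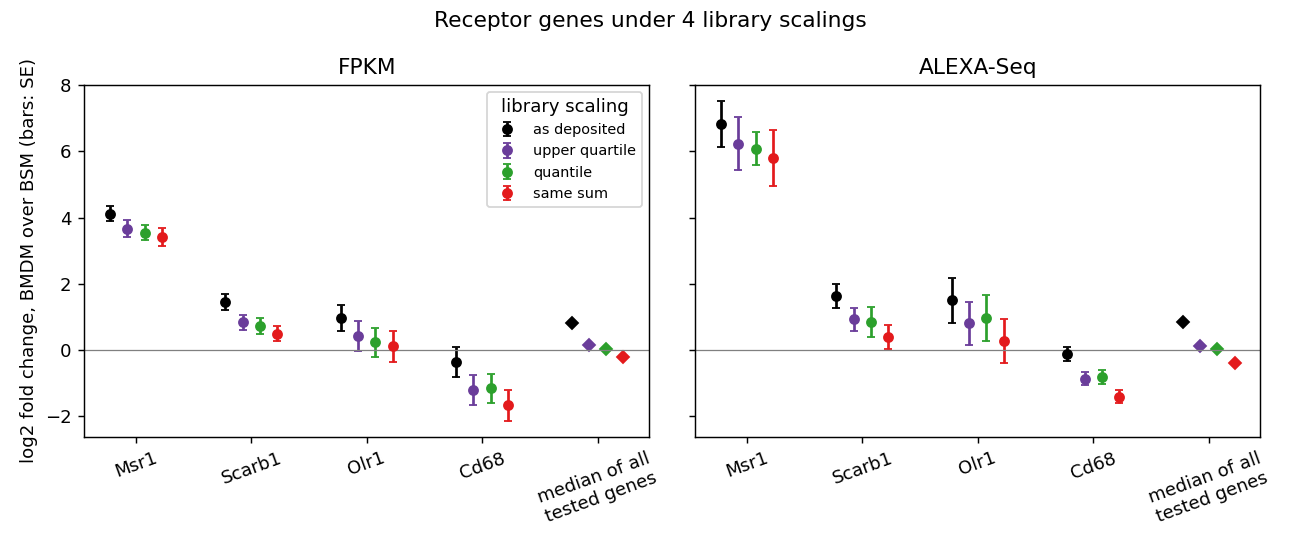
Log2 fold change of the 4 tested receptor genes, BMDM over BSM (points, with SE as bars), with values as deposited and under 3 scalings of the libraries, for FPKM (left) and ALEXA-Seq (right); diamonds give the median over the tested genes. Msr1 stays above 3 under every scaling shown, Scarb1 falls from 1.45 to 0.49 and Cd68 from -0.38 to -1.67 with FPKM as the median of all genes moves from 0.81 to -0.22.

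Olr1 encodes LOX-1, a lectin-like receptor for oxidized LDL. It had FPKM of 3.17, 3.23 and 3.78 in BMDM and of 3.22, 0.758 and 0.524 in BSM. BMDM libraries were alike, BSM replicate 1 lay among them, and the other 2 BSM libraries were lower. The log2 fold change was 0.97 (SE 0.40, adjusted p = 0.0733 by limma), and with ALEXA-Seq 1.50 (SE 0.68, adjusted p = 0.107), where the values were 48.9, 57.6 and 56.0 in BMDM and 57.8, 11.3 and 9.13 in BSM. Olr1 was called without BSM replicate 1, with a log2 fold change of 1.42 (SE 0.19, adjusted p = 0.00122) with FPKM and 2.30 (SE 0.25, adjusted p = 0.000406) with ALEXA-Seq. With no library left out, it was also called with library quality weights in both tables and with sex as a covariate with FPKM. BSM replicate 1 held 5.03 times the mean Olr1 FPKM of the other 2 BSM libraries. It had the lowest summed monocyte markers, 0.0861 FPKM, and granulocyte markers at 0. F13a1, which monocytes also express, was at 1.54 FPKM there against 0.543 and 0.253 in the other 2. The cause of the high Olr1 value was not tested. The gene lies at mm9 chr6:129435264-129457183.

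Stab1 was the sole member for which all BSM libraries lay above all BMDM libraries. It encodes stabilin-1, an endocytic receptor that clears Sparc, modified LDL and apoptotic cells. Its FPKM were 0.588, 1.00 and 0.864 in BSM, a mean of 0.819 ± 0.212 (SD, n = 3), and 0.00695, 0 and 0.00433 in BMDM. ALEXA-Seq gave the same separation with 10.4, 19.5 and 15.9 in BSM against 0.152, 0 and 0.0880 in BMDM. The ratio of mean FPKM, BSM over BMDM, was 218, and it was 378 without BMDM replicate 1 and 145 without BMDM replicate 2, since the BMDM values were near 0. Stab1 missed the minimum of the main test. With the minimum lowered to an FPKM of 1, over 9637 genes, it was called higher in BSM with a log2 fold change of -0.85 (SE 0.20, adjusted p = 0.0111 by limma) with FPKM and of -3.87 (SE 0.52, adjusted p = 0.00146) with ALEXA-Seq.

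Stab1 lies at mm9 chr14:31952205-31981758, and its end overlaps Nt5dc2. A stretch of 1.40% of its longest transcript matches Nt5dc2 at 95% identity or more over at least 100 bases, and the other 9 members had no such match to another gene. Nt5dc2 had FPKM of 0.532, 1.23 and 0.598 in BMDM and of 0.0415, 0.208 and 0.125 in BSM, and was thus higher in BMDM. How reads were assigned between the overlapping genes was not tested.

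Mrc1, the mannose receptor CD206, and Cd163, the receptor for haemoglobin bound to haptoglobin, overlapped between the cell types. Mrc1 had FPKM of 1.07, 1.12 and 1.63 in BMDM and of 0.389, 1.75 and 1.41 in BSM, with means of 1.27 ± 0.310 and 1.18 ± 0.708 (SD, n = 3 each). The BSM libraries held both the lowest and the highest value. At a minimum FPKM of 1 its log2 fold change was 0.11 (SE 0.30, adjusted p = 0.793 by limma), and 0.14 (SE 0.57, adjusted p = 0.857) with ALEXA-Seq. Cd163 had FPKM of 0.278, 0.491 and 0.523 in BMDM and of 0.0810, 0.450 and 0.216 in BSM, with means of 0.431 ± 0.133 and 0.249 ± 0.187 (SD, n = 3 each). Tested without a minimum, its log2 fold change was 0.20 (adjusted p = 0.454) with FPKM and 0.72 (adjusted p = 0.503) with ALEXA-Seq. Mrc1 lies at mm9 chr2:14151041-14253684 and Cd163 at mm9 chr6:124254674-124280545.

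Timd4 encodes TIM-4, a receptor for phosphatidylserine on dying cells that marks long-lived tissue macrophages. It was near 0 throughout, with FPKM of 0.232, 0.0150 and 0.00611 in BMDM and of 0, 0.146 and 0.0286 in BSM. BMDM replicate 1 and BSM replicate 2 were the highest of their groups, and the groups overlapped. Its log2 fold change without a minimum was 0.03 (adjusted p = 0.836 by limma). The gene lies at mm9 chr11:46624302-46657834.

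The order of the members by FPKM, a scale that takes transcript length into account, was clearer in BMDM than in BSM. In BMDM it ran Cd68, Msr1, Scarb1, Olr1, Mrc1, Cd36 and Cd163, and none of these overlapped with the next, whereas Timd4, Stab1 and Marco followed without a gap between libraries. In BSM, Cd68 stood apart from Scarb1, the next in order, by its whole range. Scarb1, Mrc1, Stab1 and Olr1 overlapped with their neighbours, Olr1 lay above Cd163 in all libraries, and Cd163, Msr1, Cd36 and Timd4 overlapped in turn above Marco at 0. Msr1 came next after Cd68 in BMDM but after Cd163 in BSM, while Stab1 was last but for Marco in BMDM and followed Mrc1 in BSM.

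The members split into 2 patterns among the BSM libraries. Cd36, Msr1, Cd163, Mrc1, Stab1 and Timd4, 6 of the 9 members with a value above 0, were highest in BSM replicate 2, next in replicate 3 and lowest in replicate 1, in both tables. Cd68, Olr1 and Scarb1 were highest in replicate 1 and lowest in replicate 3, also in both tables, so that replicate 2 lay above replicate 3 in both patterns and the place of replicate 1 differed. The former order held for 31.6% of all genes above 0 in BSM with FPKM and 30.4% with ALEXA-Seq, and the latter for 10.7% and 11.1%. In BSM replicate 1, Mrc1 stood at 0.246 times and Cd163 at 0.243 times the mean FPKM of the other 2 BSM libraries, and Cd36, Msr1 and Timd4 were listed at 0.

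Markers of perivascular macrophages, which lie along the vessels of the brain and express Mrc1, Cd163 and Stab1, had that order in part. Of 8 such markers found in the tables, 5 (Lyve1, Cbr2, Ms4a7, Siglec1 and Folr2) had it with FPKM and 4 of them, without Ms4a7, with ALEXA-Seq. F13a1 was instead highest in replicate 1, with FPKM of 1.54, 0.543 and 0.253, Pf4 was highest in replicate 3 and Cd209f was above 0 in replicate 2 alone. Lyve1, the hyaluronan receptor of these cells, had FPKM of 0, 1.87 and 0.565 in BSM replicates 1 to 3. Leaving out F13a1, which monocytes also express, the other 7 markers summed to 0.0755, 2.66 and 1.07 FPKM in BSM replicates 1 to 3, with 5 of them at 0 in replicate 1, and to 0.837, 0.490 and 0.985 in BMDM. With F13a1 the sums were 112 to 158 in BMDM and 1.33 to 3.21 in BSM. In BSM replicate 1, Lyve1, Cbr2, Ms4a7, Cd209f and Folr2 were at 0. F13a1 was at 1.54, Pf4 at 0.0737, Siglec1 at 0.00177 and Stab1 at 0.588 FPKM there. The part of these cells in the Mrc1, Cd163 and Stab1 values was not tested. Markers of marrow resident macrophages summed to 7.46 to 13.3 FPKM in BMDM and 11.0 to 18.1 in BSM. Most of this sum was Emr1, at 6.64, 8.77 and 7.15 in BMDM and 17.5, 12.8 and 10.7 in BSM. Vcam1 (0.479, 4.23 and 0.594 in BMDM, 0.238, 0.237 and 0.197 in BSM) and Siglec1 were instead higher in every BMDM library. Spic and Cd5l overlapped, and C6 was at 0 FPKM throughout. Endothelial markers summed to 2.32 to 3.87 in BMDM and 1.31 to 2.92 in BSM, most of it Pecam1 and Flt1.

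**Figure D3:**
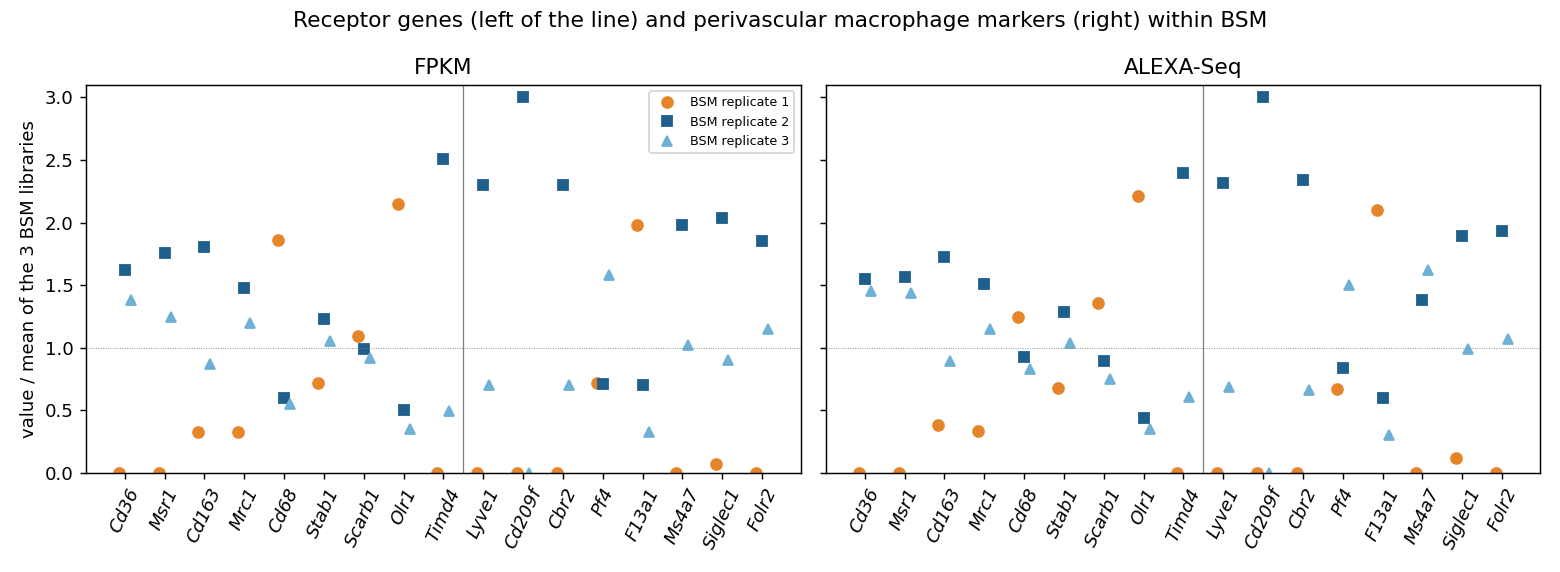
Each receptor gene (left of the line) and each perivascular macrophage marker (right) in the 3 BSM libraries, as the value divided by the mean of the 3 libraries, for FPKM (left panel) and ALEXA-Seq (right panel). BSM replicate 2 (dark squares) is highest for Cd36, Msr1, Cd163, Mrc1, Stab1 and Timd4, whereas BSM replicate 1 (orange circles) is highest for Cd68, Scarb1 and Olr1.

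Genes that work with these receptors were examined in 7 lists. Ligands of the receptors were split between the cell types: of 8, 4 were tested with FPKM, 2 called higher in BMDM, 1 in BSM and 1 not called. Sparc, the matricellular ligand that stabilin-1 clears, had FPKM of 279, 277 and 230 in BSM and of 0.0518, 0.576 and 0.129 in BMDM (log2 fold change -7.73, SE 0.25, adjusted p = 2.25e-06 by limma), and was thus high in the cell type in which Stab1 was higher. Hp, which encodes haptoglobin and forms the complex that Cd163 takes up, had FPKM of 11.5, 16.5 and 13.5 in BMDM and of 0, 0 and 0.00836 in BSM (log2 fold change 3.87, SE 0.24), while Cd163 itself overlapped. Fn1, fibronectin, was higher in BMDM by a log2 fold change of 6.99. Apoe, a ligand of lipoprotein receptors, was not called as deposited (log2 fold change -0.25, adjusted p = 0.488) and was called higher in BSM after each of the 3 scalings, with log2 fold changes of -0.95 to -1.32. Thbs1, the thrombospondin that binds Cd36, was below the FPKM minimum with 0.328, 0.860 and 1.53 in BMDM and 2.77, 0.151 and 0.153 in BSM, so that BSM replicate 1 again stood apart from the other BSM libraries.

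The genes for recognition of phosphatidylserine and engulfment, the longest of the 7 lists, gave more calls in favour of BSM than any other. Of 19, 10 were tested, 4 called higher in BMDM and 6 in BSM with FPKM, against 2 and 6 with ALEXA-Seq. Over all tested genes 9.22% were called higher in BSM with FPKM and 10.9% with ALEXA-Seq. The median log2 fold change of the tested genes of the list was -1.39 with FPKM, where that of all tested genes was 0.81. Mertk, a receptor kinase that binds phosphatidylserine through Gas6 and Pros1, had FPKM of 51.0, 70.4 and 71.5 in BSM and of 0.0224, 0.228 and 0.212 in BMDM (log2 fold change -5.81, SE 0.24). Its bridging ligand Pros1 (-2.29, SE 0.32) and the integrin subunit Itgb5 (-3.15, SE 0.23) were also higher in BSM. Cd300a, an inhibitory receptor for phosphatidylserine, was higher in BMDM (2.13, SE 0.22), and so was Rac1, the GTPase of phagocytic cup closure (1.38, SE 0.21), whose log2 fold change was 0.09 with an adjusted p of 0.716 after scaling to the same sum. Timd4, which binds the same lipid, was near 0 in both cell types.

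Among 15 other scavenger receptors, 14 were matched and 3 tested. Cd14, the coreceptor for lipopolysaccharide, was called higher in BSM with FPKM of 6.43, 4.63 and 4.35 against 0.352, 0.424 and 1.15 in BMDM (log2 fold change -1.92, SE 0.29, adjusted p = 0.00125 by limma). The remaining 2 tested genes were not called. With FPKM, 5 of the list were at 0 in every BMDM library and 2 in every BSM library. Those 5 reached at most 0.0243 FPKM in BSM. All 11 signalling partners of Cd36 were tested, with 2 called higher in BMDM, 3 in BSM and 6 not called. The tetraspanins Cd81 (log2 fold change -5.17, SE 0.67) and Cd9 (-2.86, SE 0.28), which lie beside Cd36 in the membrane, and the exchange factor Vav2 (-1.56, SE 0.29) were higher in BSM, and its relative Vav3 was higher in BMDM (3.20, SE 0.24). With ALEXA-Seq 1 was called higher in BMDM and 4 in BSM.

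Lipid handling after uptake was higher in BMDM for 4 of 8 tested genes of 11, with 2 higher in BSM and 2 not called, which is close to the 45.3% of all tested genes called higher in BMDM. Plin2, a coat protein of lipid droplets, had FPKM of 32.8, 33.9 and 36.1 in BMDM and of 3.89, 2.18 and 1.69 in BSM (log2 fold change 3.34, SE 0.28, adjusted p = 5.96e-05 by limma). Soat1, which esterifies cholesterol for storage, was also higher in BMDM (1.88, SE 0.29), and so was Npc2, which carries cholesterol in lysosomes (1.51, SE 0.36), though neither was called after scaling to the same sum (adjusted p = 0.101 and 0.595) and Npc2 not after the other scalings either. Abca1, which exports cholesterol, had FPKM of 3.21, 4.98 and 5.84 in BSM and of 0.246, 0.190 and 0.335 in BMDM (-2.15, SE 0.29). Npc1, the membrane partner of Npc2, was also higher in BSM (-0.92, SE 0.26).

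Of 8 genes for haem and iron, 5 were tested and 1 was called. Slc40a1, the iron exporter ferroportin, was higher in BSM with a log2 fold change of -1.82 (SE 0.42, adjusted p = 0.00833 by limma). Of 11 transcription factors linked to these receptors, 6 were tested, 2 called higher in BMDM, 1 in BSM and 3 not called. Maf had FPKM of 11.9, 15.8 and 16.5 in BSM and of 0.493, 0.537 and 0.611 in BMDM (-3.33, SE 0.23). Cebpb (2.14, SE 0.33) and Stat6 (1.85, SE 0.46) were higher in BMDM, though Stat6 was not called after any of the 3 scalings.

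The calls in favour of BSM in these lists stood under all 3 scalings, and those in favour of BMDM did so in part. Each scaling moved the log2 fold changes toward BSM. With FPKM their median over all tested genes went from 0.81 to 0.14 (upper quartile), 0.015 (quantile) and -0.22 (same sum). The 2 directions were therefore not put to an equal test. Over the 7 lists 15 genes were called higher in BSM with FPKM, and all 15 were also called with each of the 3 scalings. Of 14 genes called higher in BMDM, 8 were called with upper quartile scaling, 8 with quantile normalization and 6 with libraries brought to the same sum, when Crk changed sign.

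**Figure D4:**
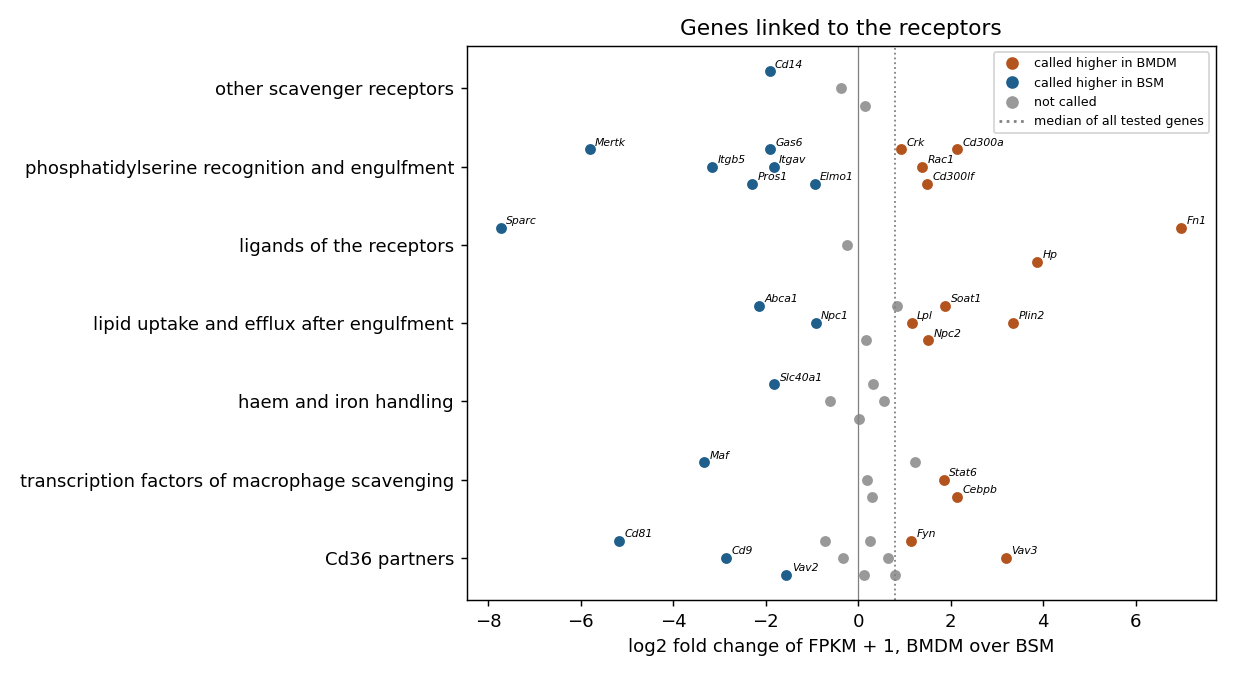
Log2 fold change of FPKM + 1, BMDM over BSM, of each tested gene in the 7 lists of linked genes (points, orange for genes called higher in BMDM, blue for BSM and grey for genes not called); the dotted line is the median of all tested genes. Sparc at -7.73 and Mertk at -5.81 lie at the BSM end and Fn1 at 6.99 and Hp at 3.87 at the BMDM end.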

How the data were processed

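RNA of the sorted cells was amplified to cDNA (Ovation) and sequenced from both ends. The authors aligned the reads with TopHat 1.3.1 and Bowtie 0.12.7 (mm9, per the labels), used CASAVA 1.7.0 according to the submitters' processing notes, and deposited Cufflinks 1.0.3 FPKM for each gene and library. The authors also deposited normalized values from ALEXA-Seq for the same libraries, used here as a signal on a linear scale whose unit is not given in the sources used here. Both tables come from the same reads and are not independent. Neither holds read counts, so the depth behind each value is unknown and no interval or floor for a 0 could be given.

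Groups, replicate numbers and sex came from the sample labels. No label states that replicates of equal number belong together, though they share sex. Each library is a pool of mice. BMDM and BSM were compared on log2(value + 1) with linear models of limma 3.58.1 (R 4.3.3), moderated along a mean-variance trend and without further scaling, for the 6364 genes that reached 3 FPKM in any library, and for the same number of genes by highest ALEXA-Seq value (at least 37.4). P-values were adjusted over all tested genes. An exact permutation test of 3 against 3 libraries has 20 assignments and a smallest two-sided p of 0.1. This step was first tested on simulated data. Ratios are of group means. Groups with a library listed at 0 are given by library.

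The members and lists were chosen with earlier results of these data known. All members are named, and from each list at most 3 genes in each direction, by largest log2 fold change among those called in both tables without overlap, plus known ligands. A gene of these lists is not reported here and was left out of their counts. The alternatives changed the pseudocount to 0.1, the minimum to an FPKM of 1 or none, and otherwise were 3 scalings (upper quartile, quantile, same sum), moderation without the trend, library quality weights, a replicate block, sex as a covariate and each library left out. Positions count from 1. Starts in the files count from 0, since 7538 of 17762 genes then have the span of GENCODE M21 and 265 otherwise. Copies were sought with blastn 2.17.0. Python 3.11.15 with numpy 2.4.6, pandas 2.3.3 and, for plots, matplotlib 3.10.9 was used.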

Additional observations from a re-analysis of the deposited data

How the results depend on the processing

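Across 128 combinations of a tested member and an alternative, the direction and the side of the threshold were as reported in 110, the call was lost in 6 and gained in 9, and the sign turned in 3. Msr1 was called higher in BMDM under all 16 alternatives in both tables. The turned signs were those of Cd68, at 0.18 (FPKM) and 0.0295 (ALEXA-Seq) without BSM replicate 1 and 0.0477 (FPKM) with library quality weights, whose estimation stopped before full convergence. Olr1 was called with FPKM at 1.43 with these weights and at 0.97 with sex as a covariate (adjusted p = 0.0476 by limma), and at 2.24 with weights for ALEXA-Seq. With libraries left out in turn, log2 fold changes with FPKM lay between 4.03 and 4.22 for Msr1, 1.30 and 1.54 for Scarb1, 0.69 and 1.42 for Olr1 and -0.69 and 0.18 for Cd68, and with ALEXA-Seq between 5.99 and 7.27, 1.45 and 1.85, 1.03 and 2.30, and -0.26 and 0.03.

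Of the members, 4 were called with FPKM without a minimum. Counted as higher in BMDM were 1 with FPKM after scaling to the same sum and 1 with ALEXA-Seq after upper quartile, quantile or same sum scaling. Counted as higher in BSM was 1 with FPKM at a minimum of 1, with none and after scaling to the same sum, and 1 with ALEXA-Seq under the same settings and after upper quartile and quantile scaling. With libraries left out, 2 to 3 members were called with FPKM and 1 to 3 with ALEXA-Seq, all of them higher in BMDM and 0 in BSM, the 1 being found without BMDM replicate 1 or 3.

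Over all genes, those called higher in BMDM with FPKM came to 1380, 1378 and 973 after upper quartile, quantile and same sum scaling against 2883 as deposited, and those higher in BSM to 1051, 1227 and 1582 against 587, and to 881 with quality weights. With ALEXA-Seq they came to 1201, 1439 and 845 against 2359 and to 1161, 1349 and 1926 against 691, and with weights to 4018 and 1344 (5362 in all against 3050). With a library left out, 2498 to 3932 genes were called with FPKM (2037 to 3194 and 461 to 738 by direction) and 1971 to 3984 with ALEXA-Seq (1452 to 3082 and 519 to 902), the lowest ALEXA-Seq count being without BMDM replicate 3. Fewer libraries were fitted there, and the cause of the other shifts was not tested.

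Deviations of equally numbered libraries correlated at -0.0195, -0.00836 and 0.134 with FPKM and 0.0154, 0.0428 and 0.104 with ALEXA-Seq. Those of unequally numbered libraries lay between -0.113 and 0.0685 with FPKM and between -0.0763 and 0.0223 with ALEXA-Seq. With 3 libraries in each group, these values cannot decide whether the replicate numbers pair the libraries. With the replicate number as a block, 3471 genes were called with FPKM (2905 higher in BMDM, 566 in BSM) and 2885 with ALEXA-Seq (2251 and 634), and of the members 2 were called in both tables.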

Other observations

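Cd68 and Olr1 differed in how closely the tables matched within a single library. In BSM replicate 1, Cd68 was 3.25 times the mean of the other 2 BSM libraries with FPKM and 1.42 times with ALEXA-Seq, whereas Olr1 was 5.03 and 5.65 times. Scarb1 was 1.15 and 1.66 times. The cause was not tested.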
